A study of Mus musculus with 14 samples.

Results

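The genes of the major histocompatibility complex (MHC) and of the antigen processing that supplies it were followed through telomere-induced senescence in immortalized fibroblasts and in liver. They were taken as every gene whose name in the liver count table begins with H2- together with *B2m*, *Tap1*, *Tap2*, *Tapbp*, *Tapbpl*, *Nlrc5*, *Ciita*, *Psmb8*, *Psmb9*, *Psmb10* and *Erap1*, joined by Ensembl ID to the fibroblast table. This gave 56 of 54532 genes, of which 32 are class I genes, 12 are class II genes, 11 serve processing or regulation, and 1, *H2-Ke6*, is a steroid dehydrogenase gene within the complex that encodes no MHC chain. Chromosome 17 held 50 of the 56 genes.

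Class I molecules are built from a heavy chain and beta-2-microglobulin, carry peptides cut by the proteasome to the cell surface, and are made by most nucleated cells. The immunoproteasome subunits, the peptide transporter TAP, tapasin and the trimming peptidase ERAP1 prepare and load those peptides, and the regulator NLRC5 drives the genes of the pathway. Class II molecules are pairs of alpha and beta chains that carry peptides from endosomes, are made mainly by professional antigen-presenting cells such as dendritic cells, B cells and macrophages, and depend on the regulator CIITA.

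RNA was sequenced from 14 libraries in 4 groups. The iMEFs are fibroblasts of mouse embryos that SV40 large T antigen made immortal, all of genotype Trf2F/F;Rosa-CreER, in which 3 control cultures received vehicle and 3 senescent cultures received 4-hydroxytamoxifen (4HT), which switches on Cre and deletes *Terf2*, the gene of the telomere protein TRF2, and were collected on day 7. The livers came from 4 control mice of genotype Rosa-mTmG and 4 senescent mice of genotype Trf2F/F;Rosa-mTmG, all of which received AAV8-Tbg-Cre, a virus whose TBG promoter makes Cre in hepatocytes. Whole livers were taken 6 to 7 weeks after injection, and the age of the mice is not given in the sources used here. No library came from iMEFs given 4HT without loss of *Terf2*, so the loss cannot be told apart from effects of 4HT or of active Cre. Liver cells other than hepatocytes are not the target of this promoter. In bulk RNA a change in the number of cells of a type and a change in the RNA of each cell cannot be told apart.

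Libraries held 15364450 to 20177401 reads in genes, and levels are given as CPM, a gene's reads scaled to the size of its library, after TMM scaling within each tissue. *Terf2* fell in both tissues, with log2 fold changes, senescent over control, of -7.23 in iMEFs and -1.72 in livers (adjusted p = 1.52e-10 and 0.00216, edgeR quasi-likelihood test). Hepatocyte markers summed to 0 to 0.0504 CPM in iMEFs and to 72969.7 to 83628 CPM in control livers. All 5 fibroblast markers fell in senescent iMEFs, with a median log2 fold change of -1.51. Senescent iMEFs replicate 3 stood furthest from the others of its group, and among livers control replicate 4 stood apart in many of the genes described here.

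Reads were found for 44 of the 56 genes. The 12 without a read in any library were 9 class I and 3 class II genes, and counted by tissue 19 had none in iMEFs and 14 none in livers. *H2-Ke6* had 1 and 1 reads in control and senescent iMEFs and 26 and 15 in control and senescent livers, too few to be tested. The gene *Gm20427* overlaps 86.4% of its exon bases on the same strand. Reads of *H2-Ke6* could therefore be lost in counting, and its low counts need not mean low expression. The class I genes in use differed between the tissues. In control iMEFs *H2-D1* and *H2-K1*, the classical chains that present peptides to cytotoxic T cells, held 39.9% and 23.6% of the class I CPM, and *H2-T22*, a nonclassical chain bound by some gamma-delta T cells, held 22.7%. In control livers *H2-Q10*, a secreted class I chain of hepatocytes, held 36.5%, *H2-K1* 34.6% and *H2-D1* 15.4%. *H2-Q10* had only 6 reads over the 3 control and 6 over the 3 senescent iMEFs.

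**Figure D1:**
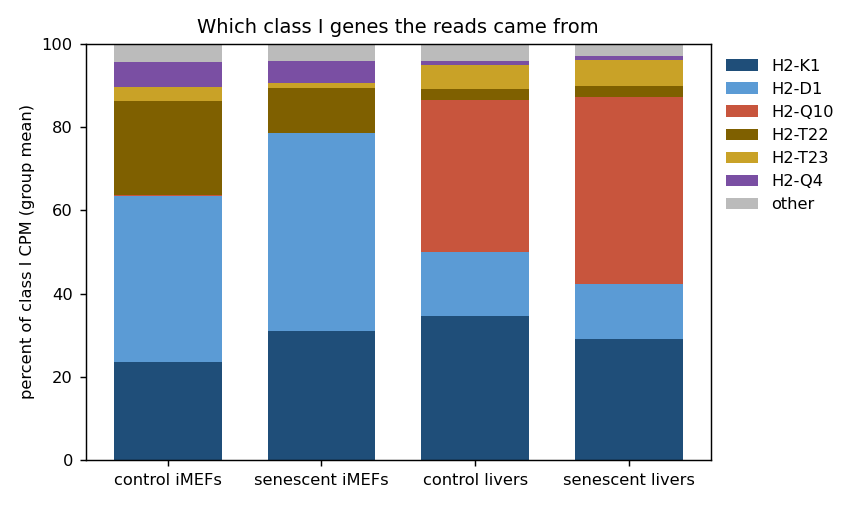
Percent of the mean class I CPM of each group that came from each class I gene, with the genes not shown pooled as other. H2-D1 and H2-K1 led in iMEFs, and H2-Q10 held 36.5% of the class I reads in control livers and 45.0% in senescent livers.

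Levels between genes were compared per kilobase of annotated exon. In control livers the order was *B2m* at 1810.3 ± 94.9 CPM per kb, *H2-K1* at 696 ± 60.8, *H2-Q10* at 497 ± 28.2 and *H2-D1* at 353 ± 43.2 (SD, n = 4 each). In senescent livers *H2-Q10* at 579.6 ± 41.8 and *H2-K1* at 557 ± 28.5 did not differ beyond their spread. In control iMEFs *B2m* led with 623 ± 50.9 CPM per kb, followed by *Tapbp* at 71.8 ± 4.94 and *H2-D1* at 32.8 ± 3.73 (SD, n = 3 each). The 3 classical class II chains *H2-Aa*, *H2-Ab1* and *H2-Eb1* stood at 11.4 ± 6.69, 16.2 ± 11.98 and 17.3 ± 11.7 CPM per kb in control livers, values that did not differ beyond their spread.

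Class I and class II promoters carry short elements known from work on these genes, among them a site for NF-kappa B, an interferon response sequence and the Y box of the conserved upstream module. Promoters of 39 of the 56 genes were matched by symbol in a table of RefSeq promoters (GRCm38.p6), each running from 250 bases before to 50 bases after the annotated start. Of 5 motifs searched on both strands, the kappa B letters, GGGGA directly followed by TTCCC, were in 0.107% of all 32851 promoters and in 4 genes of the group, *H2-K1*, *H2-D1*, *H2-Q6* and *H2-Q7*. The interferon response letters GAAGTGAAA were in 0.505% of promoters, and in the same 4 genes together with *H2-Q4*, *H2-Q10* and *H2-M3*. The 6 windows printed here are those of the genes that hold both sets of letters and of *H2-Q4* and *H2-Q10*, which hold the interferon response letters alone, and they are shown on each gene's own strand with the kappa B letters and the interferon response letters, which read TTTCACTTC on this strand, in capitals.
H2-K1: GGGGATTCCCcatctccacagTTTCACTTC
H2-D1: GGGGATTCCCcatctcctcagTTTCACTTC
H2-Q6: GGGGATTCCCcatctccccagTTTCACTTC
H2-Q7: GGGGATTCCCatctccccagTTTCACTTCt
H2-Q4: ggggatttcccatctccccagTTTCACTTC
H2-Q10: gaggactccccatctccccagTTTCACTTC

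These windows lie at chr17:34000429-34000458 on the minus strand for *H2-K1*, and on the plus strand at chr17:35262923-35262952 for *H2-D1*, chr17:35424677-35424706 for *H2-Q6*, chr17:35439022-35439051 for *H2-Q7*, chr17:35379443-35379472 for *H2-Q4* and chr17:35469913-35469942 for *H2-Q10*. They begin 125 to 176 bases before the annotated start. That of *H2-D1* overlaps an exon of a longer *H2-D1* transcript in GENCODE, and that of *H2-Q4* an exon of *Gm11131*. Counted from 1 at the 5′ end and compared with *H2-K1*, the window of *H2-D1* differed by A18T and that of *H2-Q6* by A18C, both between the elements. *H2-Q4* differed by C8T and A18C, and *H2-Q10* by G2A, T6C and A18C, so that neither held the exact kappa B letters. Only these exact letters were searched. Other forms of a kappa B site, in *H2-Q4* or elsewhere, were not looked for. In *H2-Q7* the 2 elements were 10 bases apart, 1 fewer than the 11 bases in *H2-K1*, *H2-D1* and *H2-Q6*. The letters of the Y box, CTGATTGG, lay 88 or 89 bases after the interferon response letters in *H2-K1*, *H2-D1*, *H2-Q6* and *H2-Q7*. On either strand, they were in 4.1% of all promoters and in 20 of the 39 promoters here. All class I matches read on the opposite strand, and all class II matches on the gene's own strand. Matches of opposite orientation need not be the same element, and the count of 20 pools them. Matches to different motifs overlapped in 0 places in these promoters.

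The longer interferon-stimulated element, GAAA and GAAA with any 2 bases between them, was in 3.44% of all promoters and in *H2-T22*, *H2-T23*, *B2m* and *Erap1*. The first 3 of these are printed because they moved in iMEFs in unlike directions, with the matching letters in capitals.
H2-T22: cttagTTTCACTTTCgaatc
H2-T23: actgcTTTCTCTTTCataaa
B2m: aacatGAAACTGAAAatggg
These lie at chr17:36042919-36042938 and chr17:36032811-36032830 on the minus strand and at chr2:122147543-122147562 on the plus strand. The class II chains *H2-Aa* and *H2-Eb1*, which stand for the class II genes in the liver results, had the Y box but none of the kappa B or interferon letters. *H2-Aa* also held TGACGTCA, the cyclic AMP response letters (1.79% of promoters), and both elements are in capitals in the windows of these genes.
H2-Aa: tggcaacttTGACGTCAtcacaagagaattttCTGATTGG
H2-Eb1: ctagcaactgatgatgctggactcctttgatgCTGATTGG
The windows lie at chr17:34287867-34287906 on the minus strand and at chr17:34305773-34305812 on the plus strand.

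**Figure D2:**
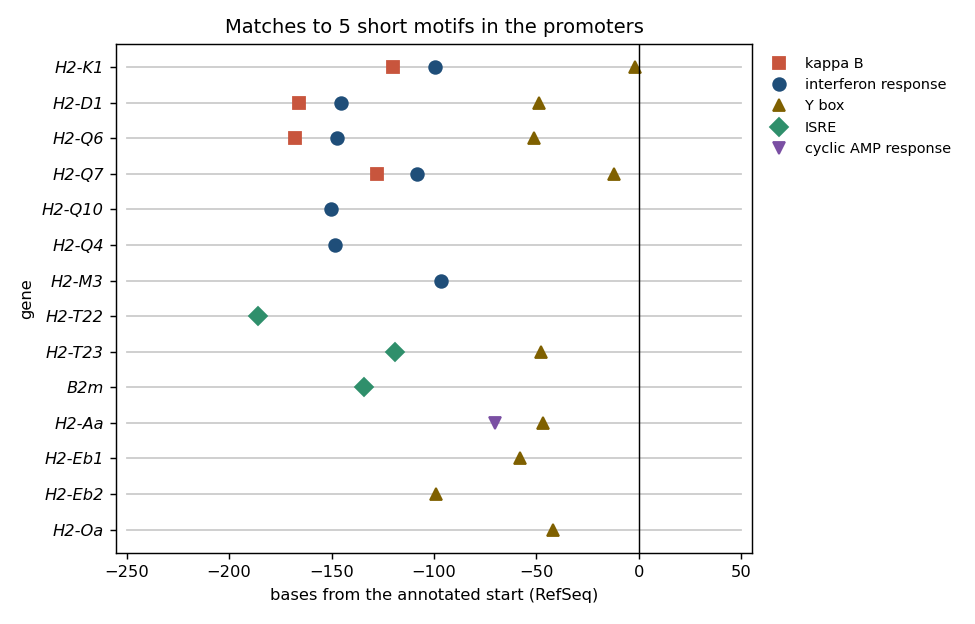
Position of the matches to the 5 motifs in the promoters of 14 of the genes, in bases from the RefSeq start, with each marker at the middle of a match. The kappa B letters are in H2-K1, H2-D1, H2-Q6 and H2-Q7, in each case 5′ of the interferon response letters, and in none of the class II promoters shown.

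The kappa B letters are a description of these promoters and not of binding. Across all genes, 14 others with these letters were tested in iMEFs, of which 3 were higher and 2 lower in senescent cells (edgeR, median log2 fold change 0.16). These counts are near the 18.6% higher and 21.2% lower of all tested iMEF genes. Of the 14 others tested in livers 0 were called, and their median was -0.03.

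In senescent iMEFs the classical class I chains rose 2.05-fold and 1.86-fold, several Q-region genes rose with them, and some nonclassical chains and loading factors fell. Of the 56 genes 23 had enough reads to be tested. Of these 8 rose and 6 fell, against a background of 18.6% of all 13561 tested genes called higher and 21.2% called lower. At an unadjusted p under 0.05 there were 9 higher and 6 lower, against 48.1% of all genes in either direction. The median log2 fold change was 0.07 over the 23 genes and 0.53 over the 11 class I genes tested, and near 0 over all genes. Because the filter keeps genes with reads in at least 1 group, these counts do not describe all 56. The rises and the medians include *H2-Q5*, which passed the filter only through the senescent group, where it was high.

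*H2-K1* (chr17:33996017-34000347, GRCm38) read 53.8, 47.2 and 49.3 CPM in the control cultures and 97.4, 94.7 and 116 CPM after senescence. *H2-D1* (chr17:35262730-35267499) read 95, 83.1 and 75.9 CPM in the control cultures and 148, 144 and 180.5 CPM after senescence. For both genes every senescent culture stood above every control culture. The log2 fold changes were 1.03 (standard error 0.10, adjusted p = 5.68e-06) and 0.89 (standard error 0.11, adjusted p = 3.88e-05, edgeR). Both chains pair with *B2m*, the invariant light chain, which read 501, 522 and 585 CPM in the control cultures and 675, 659 and 859.6 CPM after senescence. Its log2 fold change was 0.45 (adjusted p = 0.00750, edgeR), and its groups did not overlap either. The groups did not overlap for 13 of the 23 genes, of which senescent iMEFs were higher in 7 and lower in 6, where 24.2% and 26.4% of all tested genes did not overlap in these directions. The 7 include *H2-Q5*, which entered the test only through the senescent group and is given as a description.

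The Q region holds nonclassical class I genes that are near-identical in places. *H2-Q6* read 0.993, 0.806 and 0.786 CPM in the control cultures and 2.52, 1.76 and 3.15 CPM after senescence, and *H2-Q7*, which encodes a Qa-2 chain, read 1.16, 1.46 and 0.996 CPM before and 3.43, 2.31 and 5.56 CPM after. Neither gene's groups overlapped, and the log2 fold changes were 1.52 and 1.64 (adjusted p = 0.00200 and 0.00198, edgeR). *H2-Q5*, annotated as a polymorphic pseudogene, read 0.221, 0.252 and 0.0524 CPM in the controls and 0.697, 0.548 and 1.66 CPM in the senescent cultures, from 10 and 51 reads. It entered the test only through the senescent group, where it was high, so its log2 fold change of 2.42 (1.81 without senescent replicate 3) is given as a description and the rises without it were 7. *H2-Q4* read 14.5, 12.05 and 11.2 CPM in the control cultures and 18.3, 12.3 and 23.7 CPM after senescence, its groups overlapped, and its log2 fold change of 0.53 stood at an adjusted p of 0.0487 (edgeR). The call of *H2-Q4* was lost without control replicate 2 or 3 or senescent replicate 1 or 3 (adjusted p = 0.134, 0.162, 0.0791 and 0.134, edgeR). Of the 100-base stretches in annotated transcripts, 14.01% of those of *H2-Q5*, 10.8% of *H2-Q6*, 12.0% of *H2-Q7* and 2.16% of *H2-Q4* also occur in transcripts of other genes. The share was 0.957% for *H2-K1* and 3.59% for *H2-D1*. *H2-Q5* and *H2-Q7* share stretches with *H2-K1*, and *H2-Q6* and *H2-Q7* with *H2-D1*, genes of far higher level in iMEFs. Reads of these Q-region genes could therefore be split, lost or gained in counting, and their changes may not be separate from those of *H2-K1* and *H2-D1*. The part of such reads was not tested.

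Other class I chains fell in senescent iMEFs. *H2-T23* encodes Qa-1, the chain that shows leader peptides of other class I molecules to the NKG2A receptor of natural killer cells, and it read 6.95, 7.11 and 7.39 CPM in the control cultures and 3.59, 2.86 and 4.30 CPM after senescence. All 3 senescent cultures stood below all 3 controls, with a log2 fold change of -0.99 and a standard error of 0.18 (adjusted p = 0.000877, edgeR). *H2-T22* read 55.6, 50.6 and 38.2 CPM in the control cultures and 34.04, 36.5 and 37.5 CPM after senescence, a log2 fold change of -0.42 (adjusted p = 0.0176, edgeR). Its control replicate 3 lay close to the senescent cultures, and 29.4% of its exon bases overlap an antisense gene, *A930015D03Rik*. The call was lost without control replicate 1 or 2 or senescent replicate 1 (adjusted p = 0.0869, 0.0669 and 0.0625, edgeR). *H2-M3*, which presents formylated peptides, read 3.37, 1.97 and 1.83 CPM in the controls and 1.13, 1.03 and 1.72 CPM in the senescent cultures, with a log2 fold change of -0.88 just past the threshold (adjusted p = 0.0483, edgeR). It did not pass without control replicate 1 or 2 or senescent replicate 1 or 2 (adjusted p = 0.254, 0.0622, 0.134 and 0.130, edgeR). *H2-T24* and the pseudogene *H2-K2* were tested and did not pass, with log2 fold changes of -0.34 and 0.07.

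**Figure D3:**
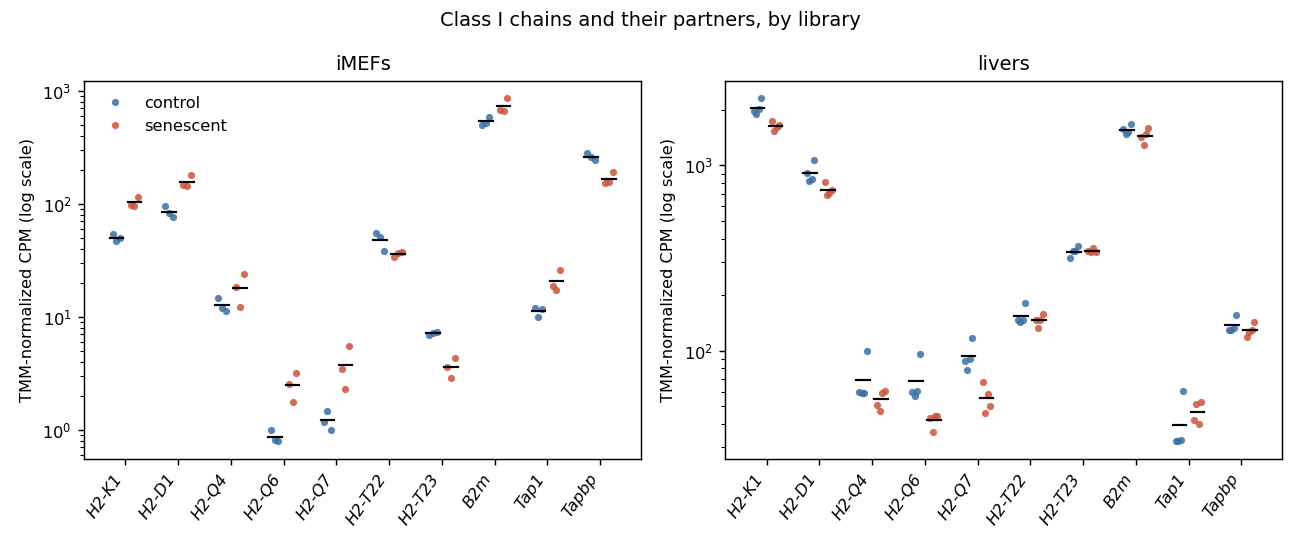
TMM-normalized CPM of class I chains, B2m, Tap1 and Tapbp in each library on log axes, with a black line at the group mean. In iMEFs every senescent culture stood above every control for H2-K1, H2-D1, H2-Q6, H2-Q7, B2m and Tap1, and in livers every senescent sample stood below every control for H2-K1, H2-D1, H2-Q6 and H2-Q7.

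Of the genes that serve peptide processing and loading, 2 rose and 3 fell among the 10 tested in iMEFs, a share near the 39.8% of all genes called. *Tap1*, a subunit of the transporter that moves peptides into the endoplasmic reticulum, read 11.9, 9.98 and 11.6 CPM in the control cultures and 18.5, 17.3 and 25.7 CPM after senescence. Its log2 fold change was 0.88 (adjusted p = 0.000702, edgeR), and its groups did not overlap. *Tap2*, the partner subunit, read 3.59, 3.23 and 3.72 CPM in the controls and 3.75, 3.65 and 5.27 CPM in the senescent cultures, with a change of 0.27 that did not pass (95% confidence interval -0.17 to 0.71). *Tapbp*, which encodes tapasin and bridges class I chains to the transporter, read 279.5, 258 and 244 CPM in the control cultures and 153, 154 and 192 CPM after senescence. Every senescent culture was below every control, with a log2 fold change of -0.64 (adjusted p = 0.000293, edgeR), and 24.9% of its exon bases overlap the antisense gene *Gm19412*. *Tapbpl*, a tapasin relative that edits peptides, fell by 0.36 on the log2 scale (adjusted p = 0.0274, edgeR). That call was lost without control replicate 1 or 2 or senescent replicate 1 or 2 (adjusted p = 0.0986, 0.0680, 0.0737 and 0.0747, edgeR).

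Of the 3 immunoproteasome subunits, which replace constitutive ones after interferon, 1 passed in iMEFs. *Psmb10* read 21.1, 20.4 and 18.7 CPM in the control cultures and 10.9, 16.3 and 14.3 CPM after senescence, a log2 fold change of -0.54 (adjusted p = 0.00924, edgeR). *Psmb8* and *Psmb9* had few reads, with 53 and 31 reads in control and 67 and 24 reads in senescent iMEFs, and neither passed. *Psmb9* and *Tap1* lie head to head and share 212 exon bases on opposite strands. *Erap1* was 38.9 ± 4.89 CPM in the controls and 39.8 ± 7.14 CPM after senescence (SD, 3 cultures each), with a log2 fold change of 0.04. *Nlrc5*, the class I regulator, read 10.5, 5.80 and 4.56 CPM in the control cultures and 10.2, 8.88 and 13.8 CPM after senescence. Control replicate 1 stood above 2 of the 3 senescent cultures, and the log2 fold change of 0.67 missed the threshold (adjusted p = 0.0586, edgeR). It passed without control replicate 1 or senescent replicate 2 (adjusted p = 0.00277 and 0.0409, edgeR).

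The classical class II chains were all but silent in iMEFs. *H2-Aa* had 0 reads in all 6 libraries, which allows at most 3 reads, and *H2-DMb2* and *H2-Ob* had 0 reads as well. *H2-Ab1* had 6 reads over the controls and 3 over the senescent cultures, and *H2-Eb1* had 2 and 11. The ratio of senescent to control reads of *H2-Eb1* was 6.17 with a 95% counting interval of 1.35 to 57.3. *Ciita*, the class II regulator, had 3 and 12 reads, with a senescent-to-control ratio of 4.49 (interval 1.21 to 24.8), and these intervals cover counting error only. The peptide-exchange chains *H2-DMa* and *H2-DMb1* were the only class II genes with enough reads to test, at 3.12 ± 0.819 and 2.36 ± 0.496 CPM in control iMEFs (SD, n = 3 each), and neither passed. Their log2 fold changes were -0.34 and -0.07.

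Most immune cell markers were at or near 0 in iMEFs. Of 10 T and natural killer cell markers 9 had no read, as had 8 of 11 macrophage markers, 3 of 6 B cell markers and 3 of 8 dendritic cell markers. The dendritic cell markers summed to 4.28 to 4.86 CPM in control and 3.11 to 4.75 CPM in senescent cultures, most of it *Zbtb46*, a transcription factor gene. *Ptprc*, the general leukocyte gene, was at 0 in control and at 0.107 to 0.304 CPM in senescent iMEFs. The macrophage markers summed to 4.03 to 4.69 CPM in control and 6.27 to 8.19 CPM in senescent iMEFs, most of it *Cd68*, a lysosomal protein gene that rose (log2 fold change 0.83, adjusted p = 0.00266, edgeR).

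In livers the classical class I chains and *H2-Q6* and *H2-Q7* stood lower in every senescent mouse than in every control, and the hepatocyte chain *H2-Q10* stood higher. None of these differences passed edgeR's test over all genes, while DESeq2 called *H2-K1*, *H2-Q6* and *H2-Q7* lower. Of 34 genes tested 0 passed edgeR's adjusted threshold, where 0.343% of all 14270 genes did, 0.308% higher and 0.035% lower. At an unadjusted p of 0.05, 1 was higher and 5 were lower, against 7.54% of all genes in either direction. DESeq2 called 3 of the genes, all lower, with 0.822% of all genes called, and when edgeR kept genes of low counts it called 2, both lower, with 0.492% of all genes called. The median log2 fold change of the 34 was -0.21, and 26 of them were negative, beside a median near 0 and 50.7% negative over all genes. Without control replicate 4 the changes of *H2-Aa*, *H2-Ab1*, *H2-DMb2*, *H2-Eb1*, *H2-Ob*, *H2-T22* and *Psmb9* were positive. The genes share libraries, so their signs are not independent of each other. The groups did not overlap for 5 genes lower and 1 gene higher, where 1.94% and 2.54% of all genes did not overlap in these directions.

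*H2-Q7* read 87.5, 78.2, 89.8 and 117 CPM in control livers and 67.7, 45.9, 58.2 and 50.2 CPM in senescent livers. Its log2 fold change was -0.74 (95% confidence interval -1.06 to -0.43), and its adjusted p was 0.0566 with edgeR and 0.000325 with DESeq2, over a range of 0.000325 to 0.229 among all alternatives. Without senescent replicate 1 it passed edgeR's test (adjusted p = 0.0263). *H2-Q6* read 59.4, 57.01, 60.5 and 95.4 CPM in control livers and 43.4, 36.2, 44.3 and 44.6 CPM in senescent livers. Its control replicate 4 stood far above the other 3, and its log2 fold change of -0.69 had an adjusted p of 0.138 with edgeR and 0.00562 with DESeq2 (range 0.00326 to 0.433 among alternatives). Leaving out control replicate 4 gave a change of -0.49.

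*H2-K1* read 1969.6, 1893, 2018 and 2302 CPM in control livers and 1741, 1538, 1617 and 1647 CPM in senescent livers, a log2 fold change of -0.32 (95% confidence interval -0.51 to -0.13). The adjusted p was 0.307 with edgeR and 0.0341 with DESeq2, over 0.0341 to 0.688 among alternatives. *H2-D1* read 907, 821, 846 and 1069 CPM in control livers and 813, 693, 711 and 736 CPM in senescent livers, a log2 fold change of -0.30 (adjusted p = 0.479, edgeR). By comparison, *H2-Q10* (chr17:35470089-35474563) read 2032, 2269, 2084 and 2266 CPM in control livers and 2289, 2672, 2461 and 2659 CPM in senescent livers. The lowest senescent value stood just above the highest control, and the log2 fold change was 0.22 (95% confidence interval 0.03 to 0.41, adjusted p = 0.570, edgeR). Summed over all class I genes the controls held 5637, 5729.9, 5723 and 6592 CPM and the senescent livers 5559, 5561, 5514 and 5777 CPM, and the groups overlapped. The 5 hepatocyte markers summed to 72969.7 to 83628 CPM in control and 81558 to 101308 CPM in senescent livers. Most of this was *Alb*, with means of 62657 and 77352 CPM and a log2 fold change of 0.30. Those of *Ttr*, *Apoa1* and *Cps1* were 0.13, 0.03 and 0.21, that of *Hnf4a* was -0.13, and none passed. The part of these markers in the class I values was not tested.

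Among the other class I chains in liver, *H2-T23* averaged 342 ± 20.95 CPM in the controls and 345 ± 7.64 CPM in the senescent livers (SD, 4 livers each), for which the log2 fold change was 0.01 with a 95% confidence interval of -0.15 to 0.18. *H2-T22* was 154 ± 17.8 and 145 ± 10.7 CPM. *H2-Q4* read 60.02, 58.8, 59.2 and 99.3 CPM in control livers and 51.03, 46.99, 59.2 and 60.6 CPM in senescent livers, with a log2 fold change of -0.35 (adjusted p = 0.680, edgeR). For *H2-Q4* control replicate 4 stood above the remaining libraries, and without it the change was -0.12. *H2-Q5*, *H2-Q1*, *H2-K2*, *H2-T10*, *H2-T24* and *H2-T-ps* had log2 fold changes of -0.30 to -0.14 and *H2-M3* one of 0.19, and none passed.

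**Figure D4:**
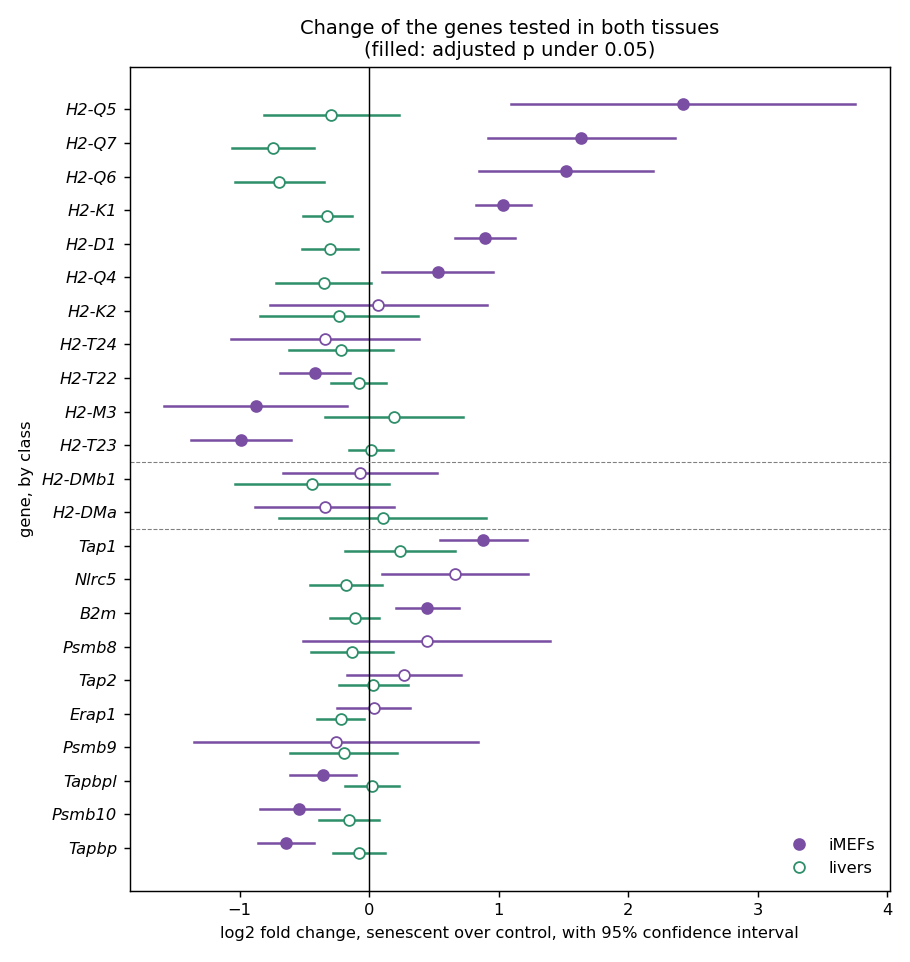
Log2 fold change, senescent over control, with its 95% confidence interval for the 23 genes tested in both tissues, grouped by class with dashed lines and filled where the adjusted p passed. In iMEFs 8 genes lie to the right and 6 to the left with filled markers, and no liver marker is filled. The 8 include H2-Q5, which entered the test only through senescent iMEFs.

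Class II genes in livers did not separate the groups. *H2-Aa* read 36.9, 24, 31.6 and 80.5 CPM in control livers and 37.98, 32.7, 26.1 and 41.7 CPM in senescent livers. *H2-Ab1* read 23.8, 24.9, 30.3 and 87.6 CPM in control livers and 33.02, 32.8, 24.5 and 38.8 CPM in senescent livers, and *H2-Eb1* read 22.05, 20.4, 24.7 and 67.7 CPM in the controls and 27.5, 24.4, 19.6 and 37.6 CPM in the senescent livers. In all 3 chains control replicate 4 was more than double any other control, and the other 3 controls lay within or below the range of the senescent livers. The log2 fold changes were -0.32, -0.37 and -0.31 with all libraries and 0.17, 0.30 and 0.29 without control replicate 4, and none passed with or without it (lowest adjusted p 0.572 without it, edgeR). *H2-DMa*, *H2-DMb1*, *H2-DMb2* and *H2-Ob*, which load class II chains or restrain that loading, were at 1.08 to 4.88 CPM in the group means, and their log2 fold changes of -0.44 to 0.10 did not pass. *Ciita* read 3.40, 2.63, 2.19 and 5.10 CPM in control livers and 1.73, 1.72, 2.35 and 2.71 CPM in senescent livers, a log2 fold change of -0.65 that did not pass (adjusted p = 0.676, edgeR) and was -0.37 without control replicate 4.

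**Figure D5:**
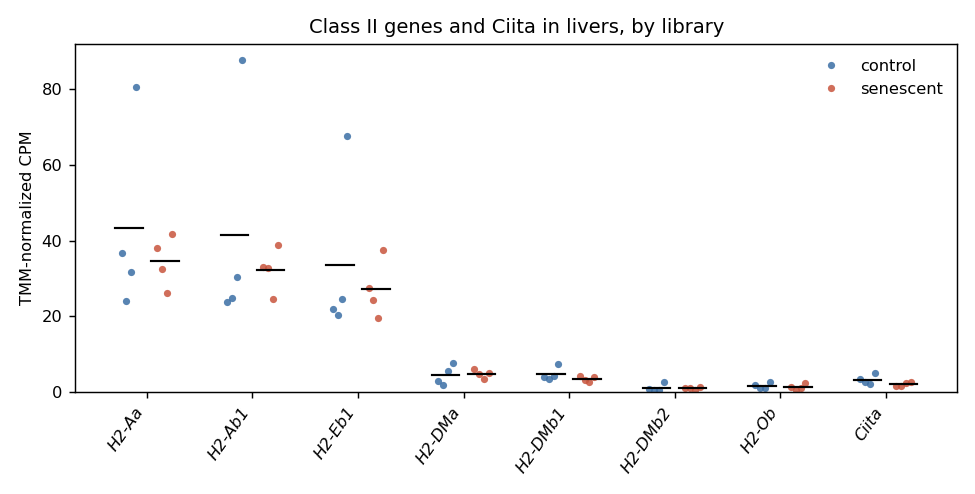
TMM-normalized CPM of class II genes and Ciita in each liver library, with a black line at the group mean. Control replicate 4 is the single high point for H2-Aa, H2-Ab1 and H2-Eb1, at 80.5, 87.6 and 67.7 CPM, and the remaining controls overlap the senescent livers.

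The same library was high for a partner of the class II chains. *Cd74*, the invariant chain that travels with class II, read 84.4, 71.3, 95.9 and 224 CPM in control livers. Markers of leukocytes were at their control maximum in replicate 4 too. The 11 macrophage and Kupffer cell markers summed to 688 CPM there and to 322 to 580 CPM in the other controls, the 6 B cell markers to 30.1 against 13.3 to 16.6 CPM, the 10 T and natural killer cell markers to 8.59 against 4.06 to 5.59 CPM, and the 8 dendritic cell markers to 18.2 against 15.98 to 17.9 CPM. Their part in the class II values was not tested. In senescent livers the macrophage markers summed to 558 to 709.9 CPM and the B cell markers to 17.2 to 44.5 CPM. Of the leukocyte, macrophage, dendritic, B, T or neutrophil markers 0 passed the test in livers with edgeR or DESeq2. An unadjusted p under 0.05 was found for 2 of them (*Adgre1* and *Cd5l*, both higher), beside 7.54% of all genes. All 11 macrophage markers had a positive log2 fold change (median 0.34), as had all 5 endothelial markers (median 0.21, sums of 220.2 to 257 CPM in control and 256 to 306 CPM in senescent livers). Their part in the lower class I values was not tested.

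Of the genes of processing and regulation in livers, 0 of 11 passed with edgeR or DESeq2. An unadjusted p under 0.05 was found for 1, *Erap1*, a share near the 7.54% of all genes. *Erap1* read 95.3, 102, 95.97 and 101 CPM in control livers and 85.9, 83.7, 92.04 and 76.3 CPM in senescent livers, with no overlap and a log2 fold change of -0.22 (adjusted p = 0.551, edgeR). *Tap1* read 32.3, 32.6, 32.7 and 60.1 CPM in control livers and 42.2, 51.1, 40.3 and 52.5 CPM in senescent livers. For *Tap1* 3 controls lay below all senescent livers and control replicate 4 above them, and the log2 fold change of 0.24 did not pass, nor did that of 0.52 without control replicate 4. *B2m* averaged 1557 ± 81.6 CPM in the controls and 1441 ± 121 CPM in the senescent livers (SD, 4 livers each), for which the log2 fold change was -0.11 with a 95% confidence interval of -0.30 to 0.08. The log2 fold changes of *Psmb8*, *Psmb9* and *Psmb10* were -0.14, -0.20 and -0.16, those of *Tap2*, *Tapbp* and *Tapbpl* 0.03, -0.08 and 0.02, and that of *Nlrc5* -0.18. *Psmb10* lies 1.13 Mb and *Nlrc5* 12.5 Mb from *Terf2* on chromosome 8, where the floxed allele differs between the liver groups. An effect of linked alleles on either gene cannot be told apart from that of the deletion.

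The difference of the change between iMEFs and livers was tested with all 14 libraries in a single model, as the liver change minus the iMEF change. Of 23 genes tested 9 passed, 2 positive and 7 negative, where 9.69% and 7.41% of the 11693 genes tested passed in these directions. The 7 negative differences were those of *H2-K1* (-1.36), *H2-D1* (-1.20), *H2-Q4* (-0.88), *H2-Q5* (-2.70), *H2-Q6* (-2.22), *H2-Q7* (-2.38) and *B2m* (-0.56), all on the log2 scale. Each of these genes rose in iMEFs and had a negative change in livers. For *H2-K1*, *H2-D1*, *H2-Q6* and *H2-Q7* the groups did not overlap in either tissue, higher in senescent iMEFs and lower in senescent livers. Their adjusted p was 6.79e-06, 8.38e-05, 0.000348 and 0.000199 (edgeR). Among the 39 promoters searched, these 4 are the genes that hold the exact kappa B letters, which was noticed after their values were seen and was not tested. Other forms of the site were not looked for, and 17 of the 56 genes had no promoter to search. The 4 windows are near-identical, so the genes are not independent cases. *H2-Q4* and *B2m*, which lack the exact letters, also had negative differences.

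The positive differences were *H2-T23* at 1.005 and *Tapbp* at 0.57 (adjusted p = 0.000267 and 0.0105, edgeR), both of which fell in iMEFs and stood near 0 change in livers. Some of these calls were lost when a library was left out. *B2m* differed by -0.51 and -0.54 without control iMEFs replicate 1 or 2, about as much as with all libraries, and did not pass (adjusted p = 0.0617 and 0.0552, edgeR). *H2-Q5*, which entered the test through senescent iMEFs alone, is given as a description here too, and the negative differences without it were 6. It did not pass without senescent iMEFs replicate 3 (difference -2.08, adjusted p = 0.0515, edgeR). *H2-Q4* lost its call without any of 5 iMEF libraries (control replicates 1, 2 and 3 and senescent replicates 1 and 3) or 3 liver libraries (control replicate 4 and senescent replicates 1 and 2), with adjusted p of 0.0531 to 0.144 (edgeR). *Nlrc5* missed the threshold at a difference of -0.84 (adjusted p = 0.0610, edgeR) and passed without control iMEFs replicate 1, control livers replicate 3 or senescent livers replicate 1 (adjusted p = 0.00454, 0.0492 and 0.0401, edgeR). *H2-T22*, *Psmb8* and *Tapbpl* each passed in 1 such fit, without control iMEFs replicate 3, control iMEFs replicate 1 and control livers replicate 4 (adjusted p = 0.0407, 0.0462 and 0.0376, edgeR).

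Further genes of these pathways were read from lists of general knowledge. Of 19 transcription factors and cofactors of MHC genes, 18 were tested in iMEFs, 0 rose and 5 fell with edgeR and 4 fell with DESeq2 (median log2 fold change -0.13), where edgeR called 18.6% of all genes higher and 21.2% lower. *Irf1*, an activator of class I and immunoproteasome genes, fell from 40.9 ± 4.02 to 22.1 ± 0.965 CPM (SD, 3 cultures each), which is a log2 fold change of -0.89 (adjusted p = 2.55e-05, edgeR). *Relb* and *Nfkb1*, which encode subunits of NF-kappa B, had log2 fold changes of -0.48 and -0.35, while *Rela*, the transactivating subunit, was at 0.04 and did not pass. Of 10 tested genes of interferon receptors and signalling, 0 rose and 7 fell in iMEFs with edgeR and with DESeq2 (median -0.40), against 18.6% and 21.2% of all genes, among them *Socs3* (-1.05), *Irf9* (-0.47), *Ifngr2* (-0.42) and *Ifnar1* (-0.37). In livers 0 of 19 and 0 of 10 genes of these lists passed (edgeR, and 0 and 0 with DESeq2), with medians of -0.08 and -0.01. An unadjusted p under 0.05 was found for 1, *Crebbp*, and for 0, beside 7.54% of all genes.

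Of 12 further genes of class I loading and the proteasome, 3 rose and 3 fell in iMEFs with edgeR and with DESeq2 (median -0.09), shares near the 18.6% and 21.2% of all genes. *Psme1* and *Psme2*, the interferon-inducible proteasome activator, fell by 0.39 and 0.59 on the log2 scale, *Canx*, the chaperone of free heavy chains, rose by 0.36, and *Psme3*, the nuclear activator, rose by 0.29. In livers 0 of the 12 passed with edgeR or DESeq2 (median 0.04), and 0 had an unadjusted p under 0.05, beside 7.54% of all genes. Of 9 genes of the class II pathway 6 were tested in iMEFs, of which 2 rose and 3 fell with edgeR, beside 18.6% and 21.2% of all genes, and 3 rose and 3 fell with DESeq2. *Cd74* fell from 13.4 ± 0.0844 to 1.38 ± 0.696 CPM (SD, 3 cultures each), which is a log2 fold change of -3.27 (adjusted p = 7.94e-07, edgeR). *Cd80*, a costimulatory ligand of T cells, rose from 1.37 ± 0.0833 to 11.5 ± 1.57 CPM, a log2 fold change of 3.07 (adjusted p = 1.30e-07, edgeR). In livers 0 of the 9 passed with edgeR or DESeq2 (median 0.13), and 1, *Lgmn*, had an unadjusted p under 0.05, beside 7.54% of all genes.

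Of 14 class I-like genes outside the complex and ligands of the NKG2D receptor, 8 were tested in iMEFs, of which 1 rose and 2 fell with edgeR (median -0.15), a share near the 39.8% of all genes called, and 1 rose and 1 fell with DESeq2. *Fcgrt*, the neonatal Fc receptor chain that also pairs with beta-2-microglobulin, fell from 49.4 ± 4.21 to 14.4 ± 0.344 CPM (SD, 3 cultures each), which is a log2 fold change of -1.78 (adjusted p = 7.31e-08, edgeR). The lipid-presenting *Cd1d1* changed by -0.89 and the endothelial protein C receptor gene *Procr* by 0.65. Of the NKG2D ligands, *Raet1d*, *Raet1e* and *Ulbp1* had log2 fold changes of -0.03, 0.09 and -0.16 in iMEFs and of 0.40, 0.50 and 0.86 in livers, and none passed in either tissue. In livers 0 of 10 tested genes of this list passed with edgeR or DESeq2 (median 0.21). An unadjusted p under 0.05 was found for 1, *Ulbp1*, beside 7.54% of all genes.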

How the data were processed

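Total RNA of biological replicates was sequenced as paired ends, and library preparation, sequencing and alignment were done at Novogene. The authors deposited raw counts of reads per gene, 1 table per tissue, and the submitters' notes name mm10, STAR, featureCounts and DESeq2 without versions. The paper tested differential expression with DESeq2. The sources used here do not give the strand setting, which bears on overlapping genes. The authors' normalized tables were not used, and 0 columns of other samples were left aside. No source says whether the iMEF cultures were independent lines, so p-values measure the spread between these samples.

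The count tables of iMEFs and livers were modelled separately in edgeR 4.0.16 (R 4.3.3; filterByExpr, TMM factors, quasi-likelihood test, Benjamini-Hochberg adjustment over all tested genes, threshold 0.05, prior count 0.125), on 13561 genes in iMEFs and 14270 in livers. The difference between tissues was fitted over all 14 libraries on 11693 genes. Levels of the 2 tissues were scaled apart. In simulated counts edgeR found 86.9%, 75% and 67.4% of genes changed by 1 on the log2 scale in iMEFs (13561 genes), in livers (14270) and for the difference (11693), and 98.9%, 93.8% and 93.3% of those changed by 2, with 7.04%, 3.45% and 3.57% of the calls false. Each simulation changed only 200 genes, none of them of low counts, while 39.8% of iMEF genes were called in the data. These rates therefore do not carry over to genes with few reads or to the share of changed genes in iMEFs.

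The genes, lists and rules were chosen with earlier results of these data known. Genes were always named if they were *H2-K1*, *H2-D1*, *B2m*, *H2-Aa*, *H2-Ab1*, *H2-Eb1* or a gene of processing or regulation, and otherwise if they passed a test or, for H2- genes, reached 1 CPM in a group mean, 33 in all. Of other lists up to 4 genes with the smallest p were named, and *Relb*, *Nfkb1*, *Rela* and the NKG2D ligands were chosen after their values were seen. Motif matches used promoters from RefSeq. The tests were repeated with DESeq2 1.42.0, with RLE factors, without the filter, with the replicate number as a block and without each library in turn. Exon lengths, overlaps and 100-base stretches came from GENCODE M21 (GRCm38), and tables and figures were made with Python 3.11.15, pandas 2.3.3 and matplotlib 3.10.9. A result of the lists is left out of the text.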

Additional observations from a re-analysis of the deposited data

Results flagged for a closer look

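In groups of 4 livers, a library far from the others of its group was found for 11 of 66 group values of the named genes, where chance flags about 1 in 20, and 10 of the 11 were the highest value in control replicate 4. These were *H2-Ab1* at 87.6 CPM (next 30.3), *H2-Eb1* at 67.7 (24.7), *H2-DMb2* at 2.77 (0.779), *H2-Q4* at 99.3 (60.02), *H2-Q6* at 95.4 (60.5), *H2-T22* at 180.5 (146), *Tap1* at 60.1 (32.7), *Psmb9* at 45.1 (26.0), *Psmb8* at 40.2 (31.6) and *Tapbp* at 155 (133). The other was the low value of *H2-Q6* in senescent livers replicate 2, at 36.2 CPM (next 43.4). The genes share a library, so these values are not independent of each other.

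The change differed between the tissues, by the test of the difference itself, for 9 genes. The liver change minus the iMEF change on the log2 scale was -1.20 for *H2-D1*, -1.36 for *H2-K1*, -0.88 for *H2-Q4*, -2.70 for *H2-Q5*, -2.22 for *H2-Q6*, -2.38 for *H2-Q7*, -0.56 for *B2m*, 1.005 for *H2-T23* and 0.57 for *Tapbp*. The senescent and control groups of the tissues also differ in model, time after deletion and cell makeup, which cannot be told apart here.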

How the results depend on the processing

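Of the values for single genes, 197 in iMEFs and 369 in livers kept their direction and side of the threshold, 19 calls were lost and 5 gained in iMEFs, and 6 were gained in livers. Calls of members in livers rose from 0 to 3 lower with DESeq2 and to 2 without the filter on low counts. Leaving out 1 library gave 7 to 9 higher and 3 to 6 lower calls in iMEFs (3 without control replicate 1 or 2 or senescent replicate 1), 0 to 1 lower in livers, and 2 to 3 higher and 5 to 8 lower for the difference between tissues. The cause was not tested. *Nlrc5* in iMEFs also passed with DESeq2, RLE factors and no filter, and *H2-M3* and *Tapbpl* did not pass with DESeq2.

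Log2 fold changes of the named genes that turned sign when 1 library was left out ran, in iMEFs, from -0.098 to 0.16 for *Erap1*, -0.29 to 0.12 for *H2-DMb1*, -0.13 to 0.22 for *H2-K2* and -0.50 to 0.10 for *Psmb9*, and in livers from -0.52 to 0.17 for *H2-Aa*, -0.56 to 0.30 for *H2-Ab1*, -0.14 to 0.49 for *H2-DMa*, -0.39 to 0.66 for *H2-DMb2*, -0.50 to 0.29 for *H2-Eb1*, -0.68 to 0.052 for *H2-Ob*, -0.30 to 0.024 for *H2-Q1*, -0.50 to 0.12 for *H2-T-ps*, -0.12 to 0.0039 for *H2-T22*, -0.024 to 0.047 for *H2-T23*, -0.30 to 0.061 for *Psmb9*, -0.039 to 0.10 for *Tap2* and -0.013 to 0.089 for *Tapbpl*. In livers *H2-Aa*, *H2-Ab1*, *H2-DMb2*, *H2-Eb1*, *H2-Ob*, *H2-T22* and *Psmb9* turned positive without control replicate 4. None of these genes passed.

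The replicate numbers are not stated to pair the libraries, and the main fits did not use them. Deviations of the same number correlated at -0.0053, -0.050 and -0.17 in iMEFs and at -0.0018, -0.083, -0.035 and 0.24 in livers. With so few libraries, these values cannot exclude pairing. With the replicate number as a block there were 7 higher and 5 lower calls in iMEFs, *H2-M3* and *H2-Q4* being lost, 0 in livers, and 2 higher and 7 lower for the difference, and *H2-DMb2* in livers turned to 0.052. *Psmb8*, *Psmb9*, *H2-Q5* and the classical class II chains had few reads in iMEFs, which limits the precision of their values.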
